A study of Homo sapiens with 12 samples.

Results

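The bright exon junction probe sets are the features of the Human Transcriptome Array 2.0 whose probes lie across the seam between joined exons (array names starting with JUC), carry exactly 1 gene symbol and had a mean log2 signal of at least 9 over the 6 arrays. They were chosen on this mean, which takes both groups together and uses no difference between them. Of 286537 junction probe sets with 1 symbol, 84263 (29.4%) were bright, out of 339146 junction probe sets and 913055 exon and junction probe sets in all. They lay in 13825 genes. For 84105 of them a splicing index could be formed, which is the log2 signal of the probe set minus the gene level, here the mean log2 signal on the same array of the gene's exon probe sets (array names starting with PSR) with a mean of at least 5, where a gene had at least 3. The other 158 had no gene level and entered only the comparison of raw signal.

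A spliced transcript is the one RNA in which 2 given exon ends meet, so a junction probe set reads the joined product, while an exon probe set reads every transcript that holds the exon, spliced at its borders or not. When splicing changes, junctions of one isoform gain signal and those of the other lose it while the gene level may stay where it was. PPIL3 is a nuclear cyclophilin, a peptidyl prolyl isomerase that is found in the spliceosome, the machine that joins exons.

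The arrays came from HEK293T, a line of human embryonic kidney cells with the SV40 large T antigen. Cells were transduced with lentivirus and selected with puromycin, and either a scrambled hairpin (SCR, 3 arrays) or a hairpin against PPIL3 (knockdown, 3 arrays) was stably integrated. The labels name 1 hairpin per group, although titles and source names number the PPIL3 hairpin differently. They do not say that replicates came from separate transductions, so each p-value speaks only to the spread among these 6 arrays. An effect of the hairpin and one of its cell line cannot be told apart. Arrays read the RNA of whole cultures, so fewer cells with a transcript and less of it per cell cannot be told apart either. The study asked how the loss of single nuclear cyclophilins affects splicing across the transcriptome. All values are log2, and all differences are knockdown minus SCR.

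The targeted gene followed its label. The PPIL3 transcript cluster read 7.75, 7.81 and 7.81 with SCR against 7.30, 7.26 and 7.28 with the knockdown. It fell by 0.51 (SE 0.030, limma adjusted p = 0.0050), one of 137 called among 19912 genes (0.688%). The call was lost when SCR array 2 (adjusted p = 0.053) or SCR array 3 (0.080) was left out and with no moderation (0.071). The median signal of the bright junctions was alike on the 6 arrays, from 10.12 to 10.15. Their median index deviation from the mean of the 6 arrays ran from -0.02 to 0.02, and the typical size of a deviation was 0.092 on knockdown array 2 against 0.059 to 0.077 on the others. Markers of the HEK293 lineage held bright junctions, among them PAX2 with 5 and LHX1 with 2. Markers of cells that a HEK293T culture should lack held some too: COL1A1, a fibroblast collagen, had 20 of 50 junctions in the set, COL1A2 had 13 of 50, the endothelial von Willebrand factor VWF had 6 of 48, and CDH5, KDR, PTPRC and LYZ had 1 each, while DCN, CD3E and CD14 had none. CD79A had 2 and PDGFRB 4. The gene levels of these markers lay between 6.02 and 8.13, and the part of other cells in any result was not tested.

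Brightness was spread unevenly over genes. The median gene had 4 members, 2888 genes had 1 and 2611 had at least 10. PRRC2A had the most with 186, followed by BAG6 with 168, ABCF1 and COL11A2 with 148 each and VARS1 with 131, but these held copies with the same values on all 6 arrays, and PRRC2A had 31 distinct profiles, BAG6 24, ABCF1 and COL11A2 22 each and VARS1 21. Over the whole set 5744 members shared all their values with another member, which left 79962 distinct profiles. The quartiles of the mean signal were 9.53, 10.13 and 10.95, with 37909 members below 10 and 6120 at 12 or more.

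Junctions tended to lie above their gene. The excess of a member over its gene level had quartiles of 0.58, 1.27 and 1.98, 20622 members (24.5%) lay at least 2 above the gene level and 8788 lay below it. The share of a gene's junctions that were bright grew with the gene level, from 6.61% in genes under 6 to 10.4%, 19.3%, 35.8% and 56.8% in each further step of 1 and 73.5% in genes at 10 or more. Yet 2383 members (2.83%) lay in genes with a level under 7, spread over 1255 of the 3150 tested genes of that kind. Probe sets differ in how well they bind, so an excess is a description of signal and not an amount of RNA.

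**Figure D1:**
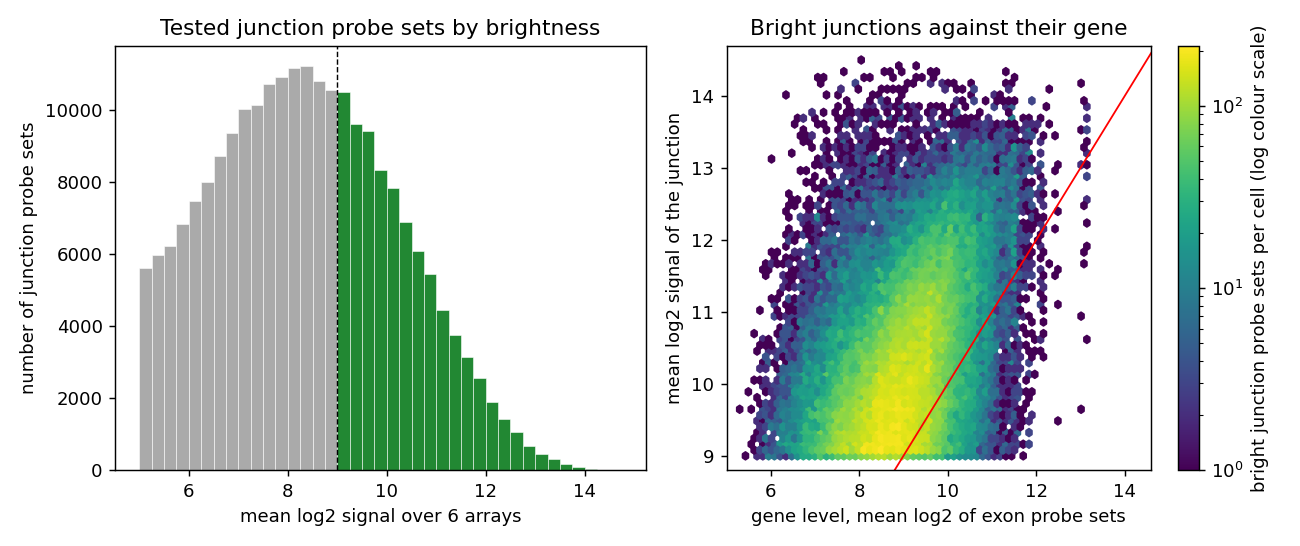
Left, number of tested junction probe sets by mean log2 signal over the 6 arrays in steps of 0.25, with the bright set in green from the dashed line at 9. Right, mean log2 signal of each bright junction against the gene level (mean log2 of exon probe sets), coloured by the number of junctions on a log colour scale, with a red line where both are equal; most members lie above it, with a median excess of 1.27.

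The 5 brightest members sat near the top of the scale on every array, far above their gene levels. TCF7L1, a transcriptional repressor of Wnt signalling, led with JUC02003945.hg.1 at 14.47, 14.47 and 14.5 with SCR against 14.51, 14.54 and 14.53 with the knockdown, against a gene level of 7.98. Next came junctions of the transcription cofactor DACH1 (mean 14.44), the ubiquitin ligase SMURF1 (14.41), the LIM protein PDLIM4 (14.39) and the Ral exchange factor RALGPS2 (14.37), with gene levels of 9.24, 8.84, 7.66 and 8.93. Their index differences lay between -0.07 and 0.15. At the other end, the members just inside the threshold were junctions of DPY19L4 and ABCA3, both with a mean that rounds to 9, and those just outside were of EMC4 and MAST3, at 8.99994 and 8.99989.

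None of the 84105 members passed the test of the splicing index. With limma on all 565705 tested probe sets, 0 were called (0%) at an adjusted p of 0.05, and the smallest adjusted p among the members was 0.34. Adjusting the same p-values over the members alone also gave 0 calls. At an unadjusted p under 0.05 there were 5043 members, or 6.0%, against 7.42% of all tested probe sets. The members' share was 2.80% when SCR array 3 was left out, 3.34% when SCR array 2 was, 9.39% when knockdown array 1 was, and 11.7% with a prior variance that follows the mean signal. Of the 5043, 2688 were higher and 2355 lower in the knockdown, where all tested probe sets gave 3.86% higher and 3.56% lower. The 3 SCR values lay wholly on one side of the 3 knockdown values in 11808 members (14.0%), close to the 13.4% of all tested probe sets.

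Differences in the bright junctions were small. The quartiles of the index difference were -0.07, 0.0025 and 0.08, and the whole range ran from -0.97 to 0.99, so that 0 members reached 1 in size, where 217 dimmer junctions did. A difference of at least 0.5 was seen in 115 members (0.137%), against 1.38% of all tested probe sets and 4.53% of the 143602 dimmer junctions.

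The spread between replicates was lower in brighter junctions. So was the share past the unadjusted threshold, in the fit with a prior variance common to all probe sets. Among junctions with a mean of 5 to 6 the median residual SD of the index was 0.358, and 14.0% were at an unadjusted p under 0.05. From 8 to 9, just below the set, these were 0.153 and 9.18%, and from 9 to 10, just inside it, 0.121 and 7.27%. At 12 or more they were 0.072 and 3.09%. Exon probe sets of the same brightness as the members had 3.78% at an unadjusted p under 0.05 and other exon probe sets 7.54%. The median size of the index difference went from 0.23 in junctions of 5 to 6 to 0.08 from 9 to 10 and 0.05 at 12 or more. The residual SD fell alongside it. A difference between means of 3 arrays tends to be smaller where the spread is smaller, so these are not separate results. These shares are descriptions, because junctions of a gene share its level and all share the 6 arrays. They also depend on how the variance was modelled. For the members as a whole the share was 7.57% with no moderation and 8.59% with moderation within the set. With a prior variance that follows the mean signal it was 11.7%. Shares by brightness were not taken under those fits.

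**Figure D2:**
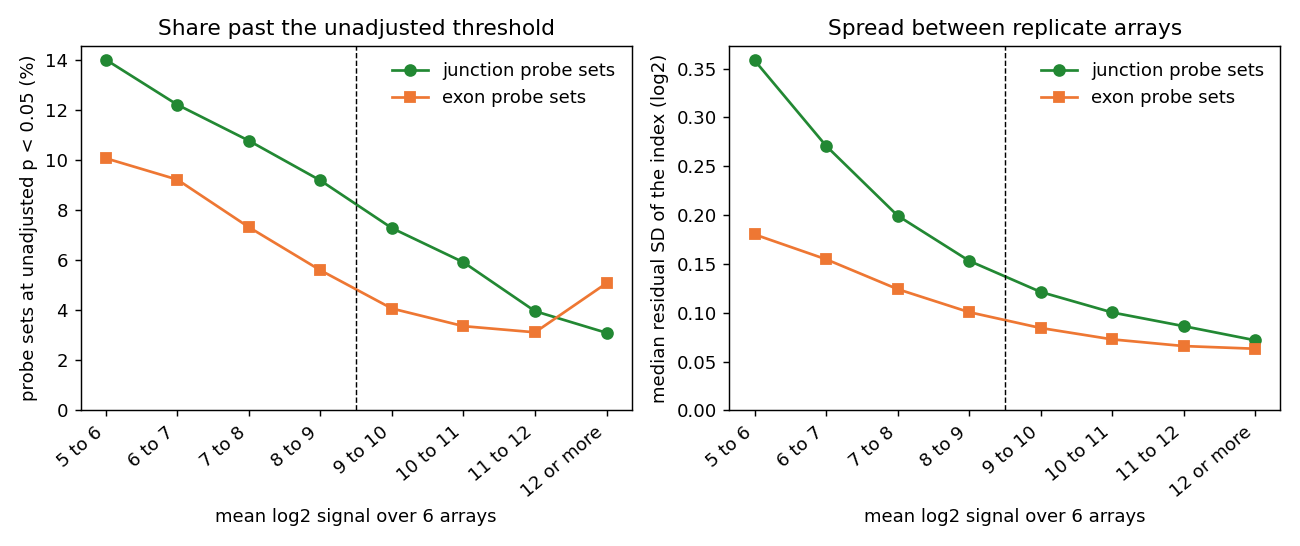
Percent of tested probe sets at an unadjusted p under 0.05 (left) and median residual SD of the splicing index in log2 (right) by mean log2 signal in steps of 1, for junction (green circles) and exon (orange squares) probe sets; the dashed line is the threshold of 9. Junctions go from 14.0% at 5 to 6 to 3.09% at 12 or more, and their SD from 0.358 to 0.072. The percentages come from the fit with a prior variance common to all probe sets.

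The number of calls turned on how the spread was estimated. Moderating the variance within the bright junctions alone, where limma's prior had 7.10 degrees of freedom in place of 2.95, gave 8 calls of 84105 (0.00951%), and letting the prior variance follow the mean signal gave 21 calls of 565705 (0.00371%), of which 7 were members. Both named ENAH with 2 junctions, NEFM, VGLL3 and NDST4. Moderation within the set added AP1S2, TSPAN2 and HMSD, and the trend added TGFBR3 with 2 junctions that are copies of each other. The 8 calls within the set became 0 when SCR array 1, 2 or 3 or knockdown array 3 was left out, 21 when knockdown array 1 was, and 4 when knockdown array 2 was.

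The members described next are the 24 with the smallest p among members whose groups did not overlap, at most 1 per gene. None was called over all probe sets, so they are given as values, and 10 were higher and 14 lower in the knockdown. In 15 of the 24 the junction itself moved more than its gene level, and in 9 the gene level moved more. Over all members the gene level moved more in 33.0%, so this split is near that of the set. It serves here only to order the members.

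Smallest in p was a junction of ENAH, which encodes Mena, an actin regulator of the Ena/VASP family that works at the leading edge of cells. JUC01031071.hg.1 read 10.49, 10.44 and 10.41 with SCR against 11.34, 11.49 and 11.41 with the knockdown, a raw difference of 0.96 or 1.95-fold, and JUC01031051.hg.1 read 10.59, 10.62 and 10.67 against 11.44, 11.57 and 11.55. In both, the lowest knockdown array stood above the highest SCR array by a wide margin, while the gene level was 10.16, 10.22 and 10.19 against 10.30, 10.39 and 10.29. Their index differences were 0.83 (SE 0.070) and 0.76 (SE 0.070), with limma adjusted p = 0.34 for each.

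The rest of ENAH stayed near its gene level. Of its 15 bright junctions, the other 13 had raw differences from -0.14 to 0.21, and those at the low end were JUC01031063.hg.1 with 11.35, 11.38 and 11.32 against 11.33, 11.26 and 11.03, and JUC01031058.hg.1 at -0.08. Among 30 exon probe sets 1 moved with the pair: PSR01059248.hg.1 read 8.72, 8.89 and 8.86 with SCR against 9.57, 9.63 and 9.70 with the knockdown, a difference of 0.81. That exon probe set was not among the members and its groups did not overlap either. In this gene 2 junctions and 1 exon probe set thus read about 0.8 to 1 higher while the others did not.

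AP1S2, a small subunit of the AP-1 clathrin adaptor, held the member with the largest positive index difference of the whole set. JUC0X005786.hg.1 read 8.24, 8.57 and 8.36 with SCR against 9.86, 9.57 and 9.90 with the knockdown, a raw difference of 1.39 or 2.61-fold. Its SCR arrays were all below 9, so it entered the set through its knockdown values, and the filter bears on its rank. The 2 exon probe sets of the gene with the smallest p, PSR0X011796.hg.1 and PSR0X011795.hg.1, were also higher, at 0.85 and 0.80. The gene level itself was 9.17, 9.15 and 9.17 against 9.52, 9.51 and 9.64, and AP1S2 was among the genes called at gene level (0.31, adjusted p = 0.021). The index difference was 0.99 (SE 0.12, limma adjusted p = 0.39). A brighter AP1S2 junction, JUC0X005784.hg.1, read 11.71, 11.94 and 11.92 against 11.86, 11.79 and 11.79, which overlap.

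MYL6, an essential light chain of non-muscle and smooth muscle myosin, held the member with the most negative index difference of the 24. JUC12020005.hg.1 read 9.59, 10.01 and 9.86 with SCR against 8.62, 9.01 and 8.83 with the knockdown, a raw difference of -1.0 and an index difference of -0.87 (SE 0.13, limma adjusted p = 0.47). Every knockdown array was below every SCR array. The knockdown mean was below 9, so this junction entered the set through its SCR values, and the filter bears on its rank. Its 4 other bright junctions had raw differences from -0.19 to 0.28, of which JUC12020003.hg.1 was the highest with 10.07, 9.89 and 9.83 against 9.99, 10.56 and 10.07, values that overlap between groups. The gene level was 8.70, 8.70 and 8.71 against 8.44, 8.61 and 8.68.

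Among the other members of the first kind, several sat in genes whose level hardly moved. RXRA encodes a retinoid X receptor, a nuclear receptor that pairs with many others. Its junction JUC09005569.hg.1 read 9.89, 10.04 and 10.03 with SCR against 9.30, 9.36 and 9.29 with the knockdown, while the RXRA gene level differed by -0.03. All 3 knockdown arrays were below all SCR arrays, with a raw difference of -0.67, and the 5 other bright junctions of the gene had raw differences from -0.23 to 0.04. RADX guards stalled replication forks, and JUC0X003379.hg.1 read 8.93, 9.01 and 8.87 against 9.43, 9.50 and 9.60, with a gene level difference of -0.02. The SCR mean of this RADX junction was below 9, so it is in the set through its knockdown values. SEC24B is a cargo adaptor of the COPII coat, and JUC04004308.hg.1 read 9.74, 9.62 and 9.64 against 10.21, 10.19 and 10.23, with a gene level difference of -0.07. The 11 other bright RADX junctions had raw differences from -0.20 to 0.24 and the 17 of SEC24B from -0.41 to 0.04. At the low end of SEC24B, JUC04004295.hg.1 read 9.63, 10.05 and 9.98 against 9.40, 9.45 and 9.58, with no overlap and an index difference of -0.34.

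In ZNF738, a zinc finger gene, JUC19003088.hg.1 read 9.30, 9.42 and 9.22 against 9.86, 9.90 and 9.93 while the gene level differed by 0.09. For the gene the files call CXXC11, JUC02012625.hg.1 read 10.18, 10.28 and 10.31 against 9.85, 9.77 and 9.62, with a gene level difference of -0.03. The groups did not overlap in either.

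In other genes of this kind the gene level was higher too, and the junction more so. MMP15 is a membrane-bound matrix metalloproteinase, and JUC16004003.hg.1 read 8.63, 8.64 and 8.62 with SCR against 9.40, 9.26 and 9.47 with the knockdown, with a gene level difference of 0.21. SPINT2 is a Kunitz-type inhibitor of serine proteases at epithelial surfaces, and JUC19004111.hg.1 read 8.82, 8.90 and 8.72 against 9.50, 9.60 and 9.66, with a gene level difference of 0.21. R3HDM1 read 8.64, 8.62 and 8.56 against 9.42, 9.58 and 9.23 at JUC02006936.hg.1, with a gene level difference of 0.26. All 3 had raw signals on the SCR arrays below 9, so that they entered the set through the mean of both groups.

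PROM1, the stem cell surface protein CD133, had bright junctions on both sides of its gene level. Of its 15 bright junctions, 4 were above and 9 below the gene level difference of 0.48 at an unadjusted p under 0.05. JUC04017210.hg.1 read 8.5, 8.81 and 8.72 with SCR against 9.62, 9.82 and 9.64 with the knockdown, a raw difference of 1.02. JUC04017242.hg.1 read 10.55, 10.50 and 10.44 against 10.44, 10.30 and 10.20, a raw difference of -0.18. The 4 above had mean signals from 9.07 to 9.42, and the 9 below, which include 1 pair of copies, from 9.14 to 10.49. In 3 of the 4 above, every SCR array was below 9, so they are in the set through their knockdown values and the filter bears on this split. PROM1 was called at gene level (0.45, adjusted p = 0.014).

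In 3 members the junction was lower while the gene level was somewhat higher. TGFBR3 is the TGF-beta co-receptor betaglycan, and JUC01023976.hg.1, which has 1 copy, read 11.66, 11.74 and 11.78 with SCR against 11.30, 11.36 and 11.39 with the knockdown, with a gene level difference of 0.20. DCHS2, a cadherin of the Dachsous family, read 9.42, 9.21 and 9.30 against 9.04, 8.98 and 8.95 at JUC04012200.hg.1, with a gene level difference of 0.20. CARD6, a protein with a caspase recruitment domain, read 9.58, 9.62 and 9.53 against 9.29, 9.24 and 9.19 at JUC05001213.hg.1, with a gene level difference of 0.17. Groups did not overlap in any of the 3 raw signals. The knockdown mean of the DCHS2 junction was just below 9, so it is in the set through its SCR values. The index differences of the 15 members of this kind ran from -0.87 to 0.99.

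**Figure D3:**
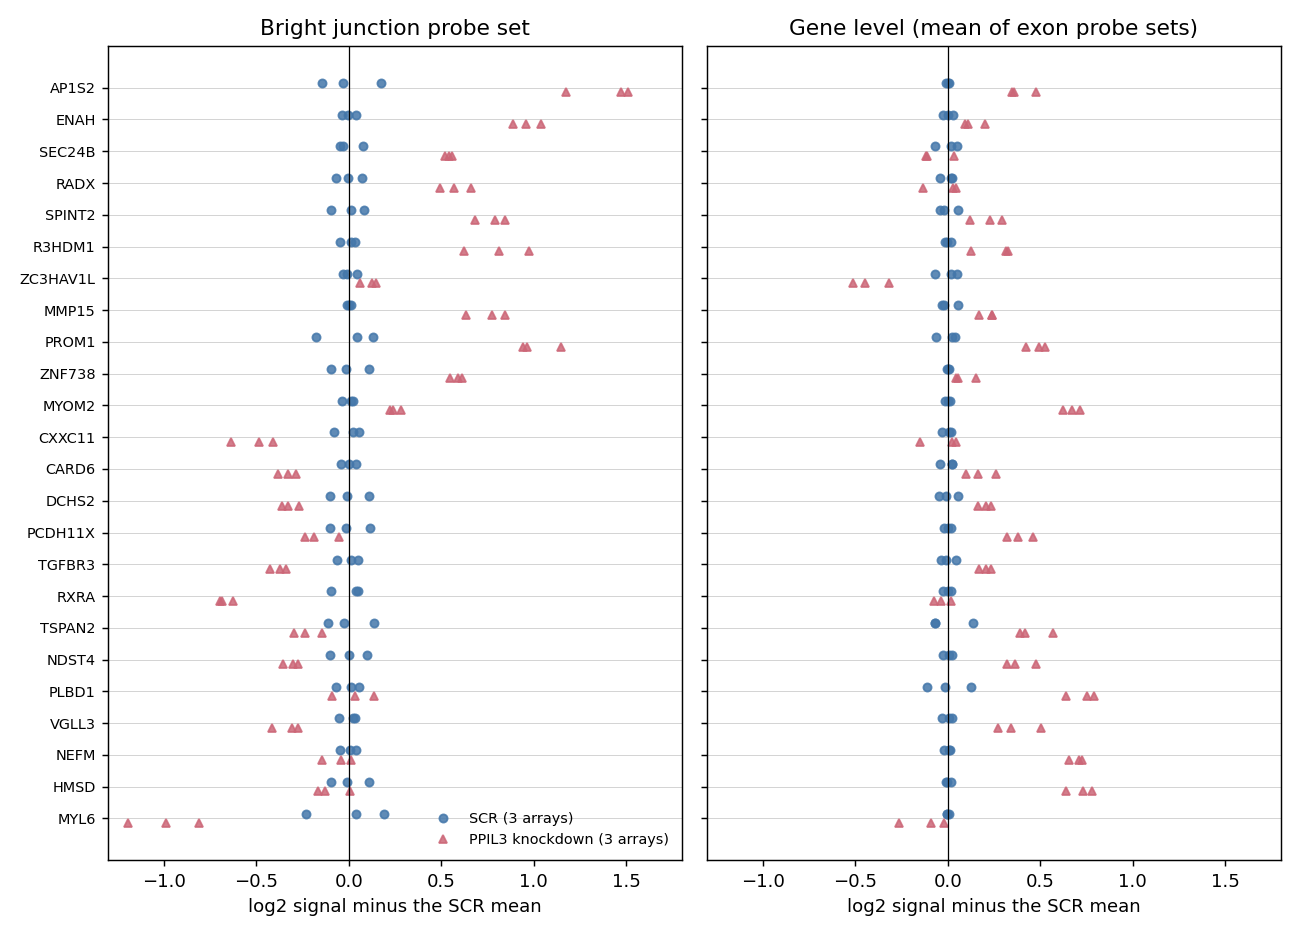
The 24 members with the smallest p among those whose groups do not overlap, 1 row per gene ordered by index difference; each point is 1 array, as log2 signal minus the SCR mean, for the junction (left) and the gene level (right), with SCR as blue circles and PPIL3 knockdown as red triangles. In ENAH, RXRA and MYL6 the junction moves and the gene level stays near 0, while in NEFM, HMSD and PLBD1 the gene level lies 0.70 to 0.73 above SCR and the junction stays.

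In the 9 members of the second kind the gene level moved and the bright junction stayed behind or went the other way. NEFM, the medium neurofilament subunit, was the case with the smallest p. JUC08001348.hg.1 read 9.10, 9.07 and 9.01 with SCR against 9.02, 8.92 and 9.07 with the knockdown, which overlap, while the gene level rose from 8.08, 8.07 and 8.05 to 8.79, 8.72 and 8.78. Its index difference was -0.75 (SE 0.067, limma adjusted p = 0.34). The other bright NEFM junctions moved with the gene, and JUC08001343.hg.1 is the 1 member called on raw signal, as given further on.

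PLBD1, a phospholipase B-like protein, and HMSD, a serpin-related gene, showed the same in 1 bright junction each. PLBD1 read 12.23, 12.19 and 12.11 with SCR against 12.32, 12.21 and 12.09 with the knockdown at JUC12009061.hg.1, with a gene level of 7.67, 7.53 and 7.43 against 8.18, 8.29 and 8.33. HMSD read 9.58, 9.67 and 9.79 against 9.69, 9.51 and 9.55 at JUC18005282.hg.1, with a gene level of 6.25, 6.28 and 6.26 against 6.90, 7.04 and 7.0. Both junctions overlapped between groups although both genes were called at gene level (adjusted p = 0.023 and 0.0057). MYOM2, an M-band protein of muscle, read 9.72, 9.74 and 9.68 against 9.94, 9.96 and 10 at JUC08000163.hg.1, a difference of 0.25 where the gene level differed by 0.67, and its 7 other bright junctions had raw differences from 0.09 to 1.06. The highest of these, JUC08000129.hg.1, was below 9 on every SCR array, and JUC08000139.hg.1 was below 9 in its SCR mean. Both are in the set through their knockdown values, so the filter bears on this range.

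In VGLL3, a cofactor of TEAD transcription factors, the junction JUC03014149.hg.1 was lower, at 11.53, 11.46 and 11.54 against 11.24, 11.21 and 11.10, while the gene level was higher by 0.37. NDST4, a heparan sulfate modifying enzyme, read 9.87, 9.97 and 10.07 against 9.67, 9.61 and 9.69 with a gene level higher by 0.39. TSPAN2, a tetraspanin, read 10.40, 10.16 and 10.24 against 10.12, 9.97 and 10.03 with a gene level higher by 0.46. In these 3 the junction and the gene level lay on opposite sides of 0, with raw junction differences of -0.33, -0.31 and -0.23. The protocadherin PCDH11X had a raw difference of -0.16 at its junction and 0.39 in its gene level, and ZC3HAV1L, related to the zinc finger antiviral protein, had 0.11 and -0.43.

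How far a bright junction followed its gene differed with how far it lay above it. There were 678 members in 159 genes whose level differed by at least 0.3 in size, 515 of them in genes that were higher and 163 in genes that were lower. For members less than 1 above the gene level (210 members), the junction difference was 1.09 times the gene level difference, as the slope of a least squares line through 0. It was 0.99 times for those 1 to 2 above (276), 0.64 times for those 2 to 3 above (154) and 0.14 times for those 3 or more above (38 members of 29 genes). In the last group 47.4% differed by less than 0.25 of the gene level difference, against 3.81% in the first.

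The slopes were also taken by direction, without PPIL3 and with copies counted once. In genes that were higher the slopes were 1.05, 1.00, 0.65 and 0.16, and in genes that were lower 1.13, 0.94, 0.55 and -0.04, the last over 6 members. Without PPIL3, which has no member in the last group, they were 1.09, 1.01, 0.65 and 0.14. No other gene was left out. With copies counted once they were 1.09, 0.99, 0.65 and 0.14. With a gene level difference of at least 0.5 they were 1.17, 1.03, 0.71 and 0.04, over 17, 28, 16 and 4 members. Members 3 or more above their gene make up 6.54% of the set (5502 members in 3677 genes), with a median signal of 11.51 over a median gene level of 7.70, and 9.12% of them were at an unadjusted p under 0.05 against 5.52% to 5.99% in the other 3 groups. These slopes are descriptions across members that share genes and arrays, and the grouping was chosen with the levels known.

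**Figure D4:**
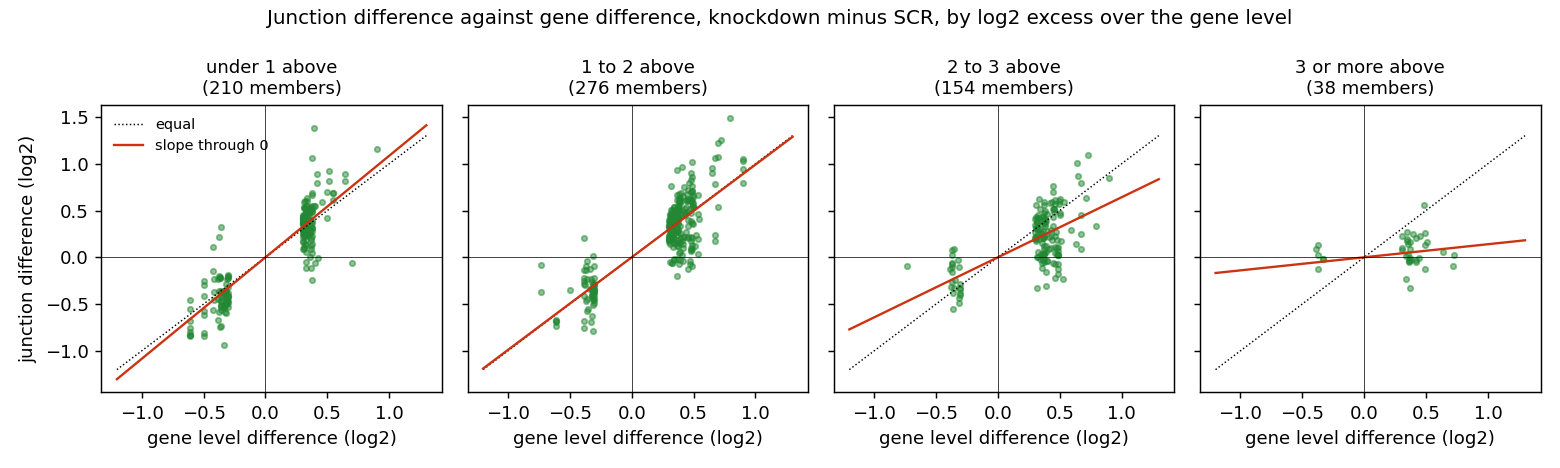
Raw log2 difference (knockdown minus SCR) of each bright junction against that of its gene level, for the 678 members in genes whose level differs by at least 0.3, in 4 panels by how far the junction lies above the gene level in log2. The dotted line marks equal differences and the red line the slope through 0, which goes from 1.09 to 0.99, 0.64 and 0.14.

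PPIL3 itself, whose RNA the hairpin targets, had both kinds of junction. Over its 26 exon probe sets the mean was 8.43, 8.53 and 8.59 with SCR against 7.76, 7.84 and 7.75 with the knockdown. Of its 14 junctions 3 were bright. The brightest, JUC02022416.hg.1, read 10.85, 10.86 and 10.78 with SCR against 10.80, 10.88 and 10.53 with the knockdown, and JUC02022417.hg.1 read 10.12, 9.98 and 9.90 against 10.17, 9.60 and 9.96. Both overlap between groups, with raw differences of -0.09 each. JUC02022413.hg.1 read 10.02, 10.06 and 10.11 against 9.71, 9.72 and 9.63, with no overlap and a raw difference of -0.37 (limma adjusted p = 0.29 over all probe sets). Because the gene level differed by -0.74, the index differences were positive, at 0.64 (SE 0.10), 0.65 (SE 0.18) and 0.36 (SE 0.067), with adjusted p of 0.51, 0.57 and 0.51.

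The PPIL3 junctions that lost most signal were dimmer. Of 11 below the threshold, 7 had raw differences beyond -1.6. Just under the threshold JUC02022408.hg.1, with a mean of 8.75, read 9.43, 9.68 and 9.57 against 7.84, 8.04 and 7.93 and fell by 1.63 (limma adjusted p = 0.033 on raw signal over all probe sets), a change of 3.09-fold. The dimmest, JUC02022421.hg.1, read 6.71, 7.34 and 7.31 against 3.92, 4.99 and 4.84, a difference of -2.54. The 4 other dimmer junctions had raw differences from -0.45 to 0.07. Its 7 exon probe sets with a mean of 9 or more were divided likewise: 3 had differences beyond -1, and the brightest, PSR02042856.hg.1, read 13.51, 13.56 and 13.60 against 13.43, 13.38 and 13.27. JUC02022408.hg.1 was above 9 on every SCR array and falls outside the set because the rule takes the mean over both groups.

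**Figure D5:**
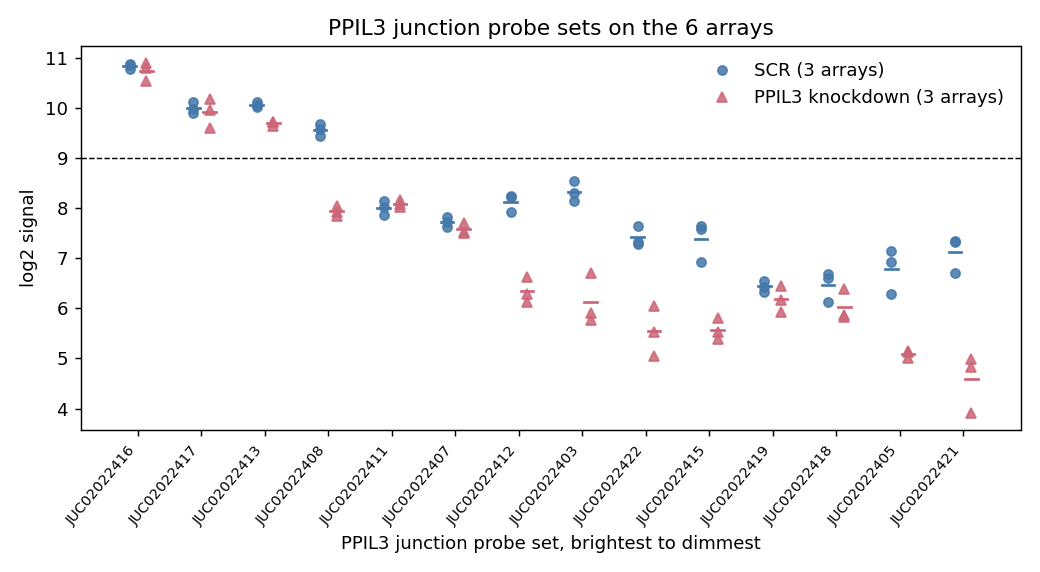
Log2 signal of the 14 PPIL3 junction probe sets on the 3 SCR (blue circles) and 3 knockdown (red triangles) arrays, ordered from brightest to dimmest by mean, with short lines at the group means and a dashed line at 9. The 2 brightest differ by -0.09, the third by -0.37, and 7 of the 11 dimmer ones by more than 1.6 in the negative direction.

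On raw signal, without subtraction of a gene level, 1 member was called among 32 of 745098 probe sets (0.00429%). It was JUC08001343.hg.1 of NEFM, which rose from 9.53, 9.33 and 9.31 to 10.63, 10.63 and 10.58, by 1.23 (SE 0.090, limma adjusted p = 0.041). Knockdown and SCR values were about 1 apart at their nearest. This call was lost, to 0 members, without any one of the 6 arrays. Of the 84263 members 8.88% had an unadjusted p under 0.05, as had 9.45% of all probe sets tested.

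Letting the prior variance follow the mean signal raised the raw calls to 511 (0.0686%), of which 98 were members in 64 genes, 63 higher and 35 lower. Some of the 63, such as junctions of LCP1 and CR2, were below 9 on every SCR array. Some of the 35, such as that of NREP, were below 9 on every knockdown array. The filter thus bears on this split. Of the 98, 61 lay in genes called at gene level, against 0.677% of all members with an index. The gene-level signal comes from the same 6 arrays. The 3 genes with most members called in this fit, picked after their values were seen, had most or all of their bright junctions called. PSMD5, which chaperones assembly of the proteasome, had 6 of 6, higher by 0.79 to 1.15, and EPCAM, an epithelial adhesion molecule, had 5 of 5, higher by 0.82 to 0.96. JUC09010468.hg.1 of PSMD5 and JUC02002309.hg.1 of EPCAM were below 9 on every SCR array, and JUC02002311.hg.1 of EPCAM was below 9 in its SCR mean. They are in the set through their knockdown values, so the filter bears on these counts. The other called junctions of both genes had SCR means above 9. ERGIC2, a protein of the compartment between endoplasmic reticulum and Golgi, had 7 of 12, from -0.84 to -0.67. One of these, JUC12009710.hg.1, read 12.16, 12.22 and 12.29 with SCR against 11.61, 11.50 and 11.54 with the knockdown.

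Other raw calls under the trend stood alone in genes that were not called at gene level. NREP, a neuronal regeneration related protein, read 9.74, 9.90 and 9.80 against 8.78, 8.94 and 8.67 at JUC05011712.hg.1, a difference of -1.02 where the gene-level signal differed by -0.20. KRT8, an epithelial keratin, read 8.47, 8.61 and 8.58 against 9.33, 9.54 and 9.95 at JUC12011247.hg.1, with a gene-level difference of 0.30. LSR, a tricellular junction protein, read 8.88, 8.87 and 8.83 against 10.08, 9.78 and 9.62 at JUC19003604.hg.1, with a gene-level difference of 0.34. No group overlapped in these 3. In NREP every knockdown array was below 9, and in KRT8 and LSR every SCR array was. These 3 are thus in the set through the group where they were higher, and the filter bears on their selection. The same fit called both ENAH junctions and those of RXRA, MYL6, MMP15, SPINT2, R3HDM1, SEC24B and ZNF738 named above. Of these, MYL6, MMP15, SPINT2 and R3HDM1 also entered the set through the group where they were higher.

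Members at an unadjusted p under 0.05 lay more often than all members in genes called at gene level, though few members of either kind did. Of the 5043, 166 (3.29%) were in such genes, where 569 members of the set (0.677%) lay in all. In 96 of the 166 the index went against the gene. The index subtracts the gene level and so leans against it by construction, and the matching count over the 569 was not taken. The 96 are thus no sign of opposed splicing. For 838 of the 5043 (16.6%) the gene level difference was larger than that of the junction, against 33.0% of all members. The 5043 were chosen on the junction minus the gene level, so the choice itself bears on this comparison. The 5043 lay in 3552 genes, of which 260 had at least 3 distinct members at that level and 324 had members on both sides.

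Lists of genes for basic cell functions gave no call. They are textbook groups, 0 members of any list were called, and counts are of members at an unadjusted p under 0.05, where the whole set had 6.0%. In the fit used here that share was lower in brighter junctions, as given above. The lists differ in brightness, with median signals of 12.3 for ribosomal proteins, 11.83 for chaperones and 10.39 for tri-snRNP proteins, so 6.0% is no matched share. Over all lists the count was 224, and 76 (without SCR array 3) to 418 (without knockdown array 1) with 1 array left out, with 107 without SCR array 2 and 138 without knockdown array 3. List medians of the index difference ran from -0.06 (HEK293 lineage) to 0.04 (respiratory chain), where the whole set had 0.0025. Cytosolic ribosomal proteins, the structural parts of the ribosome, had 294 members, 4 higher and 6 lower (3.40%), with RPS15A at -0.29 and RPLP0 at -0.28. Translation factors had 12 higher and 5 lower of 409 (4.16%), with EIF4G1, the scaffold of the cap-binding complex, at an index difference of 0.33 and EIF4E, the cap-binding protein itself, at -0.29. Both lists had medians within 0.01 of 0.

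Chaperones had 11 higher and 0 lower of 347 and the proteasome 6 higher and 0 lower of 332, or 3.17% and 1.81%, with CANX, a lectin chaperone, at 0.35 and PSMD1 at 0.24. CCT6A, a subunit of the TRiC chaperonin, led the former: JUC07002439.hg.1 read 9.33, 9.45 and 9.45 with SCR against 9.93, 10.11 and 9.77 with the knockdown, with index difference 0.47. PSMD13, of the proteasome lid, read 10.27, 10.32 and 10.37 against 10.45, 10.93 and 11.04, with index difference 0.45. Groups were separate in both, with knockdown array 1 nearest to SCR in PSMD13. The medians of these lists were 0.02 each.

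Among genes of energy metabolism, ATP5F1C stood out in size after its values were seen. In the nuclear encoded respiratory chain, with 12 higher and 4 lower of 272 (5.88%), ATP5F1C, the gamma subunit of ATP synthase, had a junction at 10.49, 10.29 and 10.25 with SCR against 9.50, 9.87 and 9.50 with the knockdown (JUC10000400.hg.1). Its index difference was -0.76 (SE 0.13, limma adjusted p = 0.51), and its gene level differed by 0.04. All knockdown arrays were lower, with knockdown array 2 the nearest to SCR. SDHA, a subunit of succinate dehydrogenase, differed by 0.38. Glycolysis had 3 higher and 6 lower of 198 (4.55%), with the platelet phosphofructokinase PFKP at 0.42 and the aldolase ALDOC at -0.39.

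Lists of the splicing machinery lay on both sides of the share in the whole set. Sm, LSm, U1 and U2 proteins had 16 higher and 10 lower of 288 (9.03%), with LSM5 at 0.33 and SNRPC, a U1 protein, at -0.32. Tri-snRNP, PRP19 and catalytic proteins had 9 higher and 6 lower of 547 (2.74%), with PRPF3 at 0.33 and the U5 GTPase EFTUD2 at 0.24. The hnRNPs had 6 in each direction of 348 (3.45%), with HNRNPR at 0.39 and RBM39 at 0.40. The RBM39 junction was below 9 in its SCR mean, so it is in the set through its knockdown values. SR proteins and their kinases had 9 higher and 6 lower of 222 (6.76%), with SRRM1 at 0.38. SRSF5 was at 0.28 but at -0.015 when the gene level was a median of exon probe sets. Nuclear cyclophilins had 6 higher and 1 lower of 72 (9.72%), and 3 of the 6 are the PPIL3 junctions above. Other cyclophilins and FKBPs had 5 higher and 2 lower of 110 (6.36%), with PPIA, the cytosolic cyclophilin A, at 0.30 and the steroid receptor cochaperone FKBP5 at 0.19.

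The remaining lists gave small counts. DNA replication factors had 16 higher and 4 lower of 359 (5.57%), with the clamp loader subunit RFC5 at 0.26 and the flap endonuclease FEN1 at -0.28, and nuclear transport factors had 7 higher and 4 lower of 569 (1.93%), with TNPO3, which imports SR proteins, at 0.39 and the exportin XPO5 at 0.26. Actin and tubulin genes had 13 higher and 9 lower of 627 (3.51%), with TUBA1B at 0.30 beside MYL6, and aminoacyl-tRNA synthetases 6 higher and 5 lower of 361 (3.05%), with FARSA at -0.26 and CARS1 at -0.38. The snoRNA host genes had 1 higher and 3 lower of 53 (7.55%), both named ones being junctions of the nucleolar protein NCL at -0.23 and -0.27. The marker lists held 0 of 37 for fibroblasts (COL1A1 at -0.19 and COL1A2 at -0.16), 0 of 4 for immune cells (LYZ at -0.09 and CD79A at -0.13), 1 of 8 for endothelium (VWF at 0.18, with CDH5 at -0.12) and 2 higher and 2 lower of 19 (21.1%) for the HEK293 lineage, where the named members are the 2 NEFM junctions given above. Both higher ones and 1 of the lower ones are junctions of NEFM, which was called at gene level. The 21.1% thus rests mostly on 1 gene and is no trait of the list. The CD79A junction was below 9 in its knockdown mean, so it is in the set through its SCR values.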

How the data were processed

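Biotin-labelled cDNA from total RNA was read on the Human Transcriptome Array 2.0 of Affymetrix. Values were made, per the labels, with Affymetrix Expression Console and RMA by the authors (versions: not given in the sources used here), which subtracts background, equalizes the arrays and combines probes, and the deposited values are log2 signals. The 12 samples are 6 arrays summarized as a gene-level and a probe set table. Titles and source names give the PPIL3 hairpin different numbers. The number of arrays limits the precision. Positions and junction sequences are not printed, since the build is one of the items not given in the sources used here. Of the junction probe sets, 16332 had several symbols and 36277 were unnamed here, and none of these was used. Among the gene symbols of the probe sets, 2474 were older ones that were updated with RefSeq names.

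The members and gene lists were chosen with earlier results of these data known. The splicing index was fitted by limma (lmFit, eBayes, a two-sided test, Benjamini-Hochberg at 0.05) over all probe sets whose mean reached 5 and whose gene kept 3 or more exon probe sets. Raw signal and gene-level signal were tested likewise. Scripts were tested on simulated data. Named members are those of PPIL3, the 24 with the smallest p among members without overlap between groups (1 per gene), up to 2 per list, the 5 brightest and 2 on each side of the threshold. Alternatives were other gene levels, thresholds, moderation, array weights, normalization, diffSplice, a replicate block and leaving out each array. Moderation within the set combined with a block, a trend or a left-out array, and a trend on the mean index, were chosen after seeing the data. Python 3.11.15 with matplotlib 3.10.9 drew the plots, and R 4.3.3 with limma 3.58.1 and data.table (version 1.17.8) did the rest.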

Additional observations from a re-analysis of the deposited data

How the results depend on the processing

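The count of members called over all probe sets, 0, stayed 0 without any one array and in the other alternatives, except 7 with a trend on the mean signal and 97 with diffSplice. Moderation within the set has no value for that count. Adjusted within the set, 0 became 10 with the trend on the mean signal, 5 with a trend on the mean index, 8 with moderation within the set, 31 with that and the trend together, and 28 with diffSplice. With moderation within the set, leaving out 1 array gave 0 to 21, with 21 without knockdown array 1 and 4 without knockdown array 2.

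With the replicate number as a block, 0 members were called over all probe sets or within the set, 5.78% were at an unadjusted p under 0.05, and 197 of the list members (224 without it). With moderation within the set and the replicate block 85 were called. After group means were removed, same-numbered arrays correlated at 0.336, 0.191 and 0.055 over the members. Of the 6 arrays 5 correlated best with their own number, and SCR array 3 with knockdown array 2. Since the third pair correlated so weakly, the numbers were not taken as pairs.

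The share of members at an unadjusted p under 0.05 was 11.7% with the trend and 2.80% (without SCR array 3) to 9.39% (without knockdown array 1) with 1 array left out, with 3.34% without SCR array 2. The median index difference then ran from -0.0063 to 0.0146, and the list members at that level numbered 76 (without SCR array 3) to 418 (without knockdown array 1), with 107 without SCR array 2 and 138 without knockdown array 3. The 1 raw call became 0 with the block, with no moderation and without any one array (0 to 0). It became 6 at a brightness of at least 8, 98 with the trend and 8 with array weights. Moderation within the set gave 115, but there the adjustment was also over the members alone and not over all probe sets.

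The PPIL3 gene-level difference was -0.53 to -0.50 with 1 array left out. The limma adjusted p for PPIL3 was 0.053 (-0.50) when SCR array 2 was left out, 0.080 (-0.50) when SCR array 3 was, and 0.071 (-0.51) with no moderation. The SRSF5 index difference turned to -0.015 with a median gene level. Of the other named differences, over up to 17 alternatives each, 1067 stayed on the same side of the threshold and 12 passed it.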
